A study of Mus musculus with 9 samples.

Results

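The matricellular and elastic fibre glycoproteins examined here are 10 secreted proteins of the extracellular matrix, chosen by gene symbol and found as 10 of the 55536 genes in the deposited tables. They are Sparc (osteonectin), Thbs1 and Thbs2 (thrombospondins), Tnc (tenascin C), Postn (periostin), Fn1 (fibronectin), Eln (elastin), Fbn1 (fibrillin), Bgn (biglycan) and Mgp (matrix Gla protein). RNA was sequenced from muscle of male mice of the outbred ICR strain in 9 libraries, and the muscle was not named. Young vehicle mice were 2 months old (libraries 2, 3 and 4) and aged vehicle mice were 18 months old (libraries 1, 3 and 4), both labelled vehicle-treated. Aged GW8510 mice (libraries 1, 3 and 4) were also 18 months old and received the small molecule GW8510 intraperitoneally at 2 mg/kg daily for 14 days. The vehicle was carboxymethylcellulose. The labels do not state that the 3 libraries of a group came from separate animals, so p-values measure only the spread between these libraries, which may be technical.

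Matricellular proteins are secreted into the matrix but act mainly on cells and on growth factors, and do not serve chiefly as scaffold. Elastic fibres form when elastin is laid down on fibrillin microfibrils, and fibronectin guides the assembly of both collagen and microfibrils. In skeletal muscle most of these proteins are made by fibroblasts, tendon cells and vessel wall cells between and around the fibres. In bulk tissue, fewer cells of a type and less RNA per cell cannot be told apart.

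All 10 genes passed the filter on low counts that left 14384 genes for testing, and library totals ran from 21718965 to 27437970 counts. Skeletal muscle fibre markers were present in every library, with summed levels of 105959 to 169121 CPM (counts per library, put on a common depth with TMM factors). Library 4 of the aged vehicle group stood apart: of the 9 libraries it was lowest for 10 of the 10 genes. The differences between groups are therefore also given without it.

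Promoter sequence was looked up to see what the genes that were lower together share in the bases before their start sites. RefSeq (GRCm38.p6) held 8 promoters for 6 of the 10 genes, namely Sparc, Thbs2, Tnc, Postn, Fbn1 and Bgn. Thbs1, Fn1, Eln and Mgp were not matched. Each promoter covered 250 bases before to 50 bases after the start, and exact matches on both strands were sought for the TATA box (TATAAA), a TEAD motif (GGAATG), a SMAD motif (CAGACA) and an AP-1 motif (TGANTCA). The 2 promoters of Tnc overlap, as their starts lie close together, so the matches were counted by gene. TATA letters were found for 3 of the 6 genes, against 15.7% of 27025 mouse genes with a promoter in the table, and SMAD letters for 3 of the 6 (Sparc, Thbs2 and Tnc), against 23.6% of genes. TEAD and AP-1 letters were found for 0 of the 6, against 16.6% and 8.97% of genes. The Sparc window overlaps exons of other Sparc transcripts in GENCODE M21 and is not shown, and without Sparc the SMAD letters were found for 2 of 5 genes. The 250 bases before the start of Postn, Tnc and Thbs2, the 3 genes with TATA letters, are shown 5′ to 3′ on the gene's strand, with motif letters in capitals. The region of Postn is chr3:54360857-54361106 on the plus strand, that of Tnc is chr4:64047016-64047265 on the minus strand, and that of Thbs2 is chr17:14694263-14694512 on the minus strand.
Postn: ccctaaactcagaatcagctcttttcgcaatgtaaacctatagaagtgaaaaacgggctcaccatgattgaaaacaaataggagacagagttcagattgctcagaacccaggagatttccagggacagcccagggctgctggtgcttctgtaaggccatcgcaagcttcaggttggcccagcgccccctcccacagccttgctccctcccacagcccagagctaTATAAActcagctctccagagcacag
Tnc: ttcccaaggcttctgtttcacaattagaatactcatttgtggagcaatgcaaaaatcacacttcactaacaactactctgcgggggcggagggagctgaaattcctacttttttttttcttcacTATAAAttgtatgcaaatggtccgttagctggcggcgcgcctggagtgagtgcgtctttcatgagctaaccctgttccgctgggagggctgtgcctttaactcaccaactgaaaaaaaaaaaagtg
Thbs2: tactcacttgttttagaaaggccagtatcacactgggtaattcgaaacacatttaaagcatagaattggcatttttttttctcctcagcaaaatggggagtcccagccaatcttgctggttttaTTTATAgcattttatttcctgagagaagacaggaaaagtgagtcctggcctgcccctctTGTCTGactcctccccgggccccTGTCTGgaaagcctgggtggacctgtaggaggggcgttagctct
In Postn the TATA letters began 26 bases before the start, and in Tnc and Thbs2 they began 126 bases before it. From the other Tnc start, whose region is not shown, the same TATA letters began 205 bases before. In Thbs2 they read on the opposite strand, as did a pair of SMAD matches that began 67 and 44 bases before the start. A match is a stretch of letters and not a measured binding site.

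In muscle of 18-month vehicle mice all 10 genes were lower than in 2-month vehicle mice, and the libraries of the 2 groups did not overlap for any of the 10. Sparc and Thbs1 fell with age, by 5.41-fold and 8.73-fold. The other 8 were 2.24-fold to 6.61-fold lower but did not pass the threshold of 0.05 on the adjusted p (edgeR quasi-likelihood test, Benjamini-Hochberg over 14384 genes). Of all genes tested, 0.695% passed in the downward direction and 0.521% upward, and 13.5% had aged vehicle libraries that all lay below the young ones. An unadjusted p under 0.05 with a lower level was found for 10 of the 10, against 10.1% of all genes. Below 0 were 48.9% of all genes. All 10 had a log2 fold change below -1, against 7.39% of all genes, and their median was -2.08 against 0.01 over all genes.

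**Figure D1:**
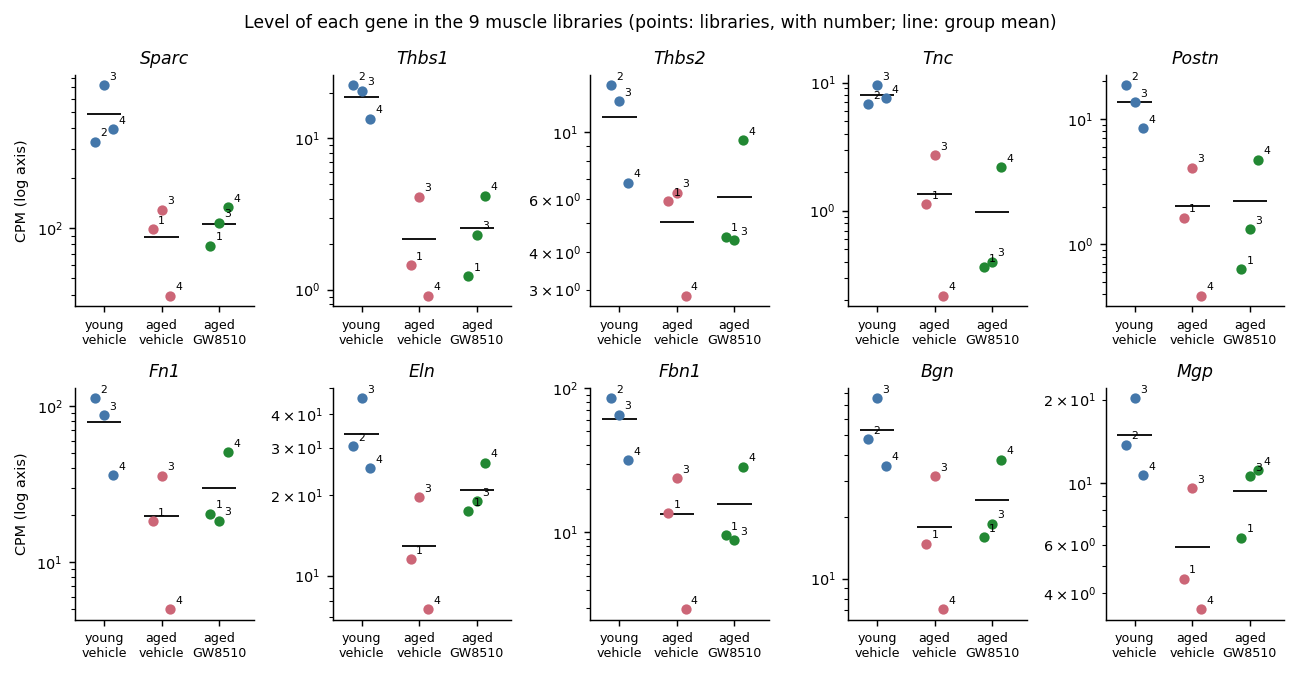
Level of each of the 10 genes in CPM, on log axes, with a point for each library and a line at the group mean. The aged vehicle points lie below the young vehicle points for all 10 genes, and library 4 is the lowest of the aged vehicle group in each panel.

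Sparc is a collagen-binding matricellular protein of basement membranes (ENSMUSG00000018593; GRCm38 chromosome 11, 55394500 to 55423183, minus strand). Its level was 329.9, 723 and 393 CPM in the young libraries, 98.7, 129.5 and 39.3 CPM in the aged vehicle libraries, and 78.4, 108 and 134 CPM in the aged GW8510 libraries. Every aged library lay below every young one, and the aged groups overlapped. The log2 fold change with age was -2.43 (SE 0.45, adjusted p = 0.0383, edgeR), and without aged vehicle library 4 it was -2.08 (adjusted p = 0.0386).

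Thbs1 encodes thrombospondin 1, an anti-angiogenic protein that activates latent TGF-beta (ENSMUSG00000040152; chromosome 2, 118111876 to 118127133, plus strand). It stood at 22.6, 20.7 and 13.5 CPM in young vehicle, 1.45, 4.13 and 0.909 CPM in aged vehicle and 1.23, 2.30 and 4.18 CPM in aged GW8510 libraries. The young libraries were all above the aged ones, with no overlap. The log2 fold change with age was -3.13 (SE 0.57, adjusted p = 0.0383, edgeR), the lowest of the 10, and without aged vehicle library 4 it was -2.77 with an adjusted p of 0.0530, no longer past the threshold.

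Both calls depended on single libraries, as did the number of calls over all genes. With 1 of the 9 libraries left out at a time, Sparc passed in 2 of 9 fits and Thbs1 in 3 of 9, and the log2 fold changes ran from -2.80 to -2.02 for Sparc and from -3.98 to -2.77 for Thbs1. Sparc passed without aged vehicle library 3 or 4, and Thbs1 without aged vehicle library 3, aged GW8510 library 1 or aged GW8510 library 4. Over all genes, 19 to 148 passed in the fits with 1 library left out, against 175 with all 9. Without aged GW8510 library 3, which is in neither group, 35 genes passed, with Sparc at -2.43 and Thbs1 at -3.12. A fit to only the 6 vehicle libraries passed neither gene, with adjusted p-values of 0.0759 for Sparc and 0.0643 for Thbs1. In that fit 50 of 14120 genes passed.

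Thbs2, the related thrombospondin with anti-angiogenic activity (ENSMUSG00000023885; chromosome 17, 14665500 to 14694235, minus strand), had the smallest difference of the 10. It read 14.3, 12.6 and 6.79 CPM in young vehicle, 5.89, 6.30 and 2.86 CPM in aged vehicle and 4.49, 4.38 and 9.39 CPM in aged GW8510 libraries. Aged vehicle libraries 1 and 3 lay just under the lowest young library and aged vehicle library 4 further below. Aged GW8510 library 4 lay within the young range. Its log2 fold change with age was -1.16 (SE 0.41, adjusted p = 0.180, edgeR).

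Tnc, an anti-adhesive hexameric protein found at myotendinous junctions and in injured muscle (ENSMUSG00000028364; chromosome 4, 63959785 to 64047015, minus strand), was the scarcest of the 10 per length (in TPM, given with the order of levels). It measured 6.81, 9.56 and 7.57 CPM in young vehicle, 1.13, 2.70 and 0.217 CPM in aged vehicle and 0.363, 0.398 and 2.18 CPM in aged GW8510 libraries. Aged vehicle library 4 held 5 counts, and aged GW8510 libraries 1 and 3 held 8 and 9, against a floor of 3 counts. No aged library reached the young range, and the log2 fold change with age was -2.56 (SE 0.79, adjusted p = 0.139, edgeR).

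Postn encodes periostin, which binds collagen and tenascin C (ENSMUSG00000027750; chromosome 3, 54361109 to 54391037, plus strand). Values were 18.5, 13.6 and 8.43 CPM in young vehicle, 1.64, 4.09 and 0.390 CPM in aged vehicle and 0.636, 1.33 and 4.72 CPM in aged GW8510 libraries. All aged libraries were below the lowest young one, although the aged vehicle libraries were spread over a wide range. The log2 fold change with age was -2.72 (SE 0.81, adjusted p = 0.128, edgeR), larger in size than that of Sparc but with a larger error.

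Fn1, the integrin-binding adhesive glycoprotein (ENSMUSG00000026193; chromosome 1, 71585520 to 71653200, minus strand), read 112, 87.8 and 36.0 CPM in young vehicle, 18.3, 35.9 and 4.98 CPM in aged vehicle and 20.4, 18.5 and 50.7 CPM in aged GW8510 libraries. Young library 4 and aged vehicle library 3 were nearly level, and aged GW8510 library 4 lay above young library 4. The log2 fold change with age was -1.997 (SE 0.68, adjusted p = 0.167, edgeR).

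Of the elastic fibre pair, Eln, the elastic core protein (ENSMUSG00000029675; chromosome 5, 134702593 to 134747323, minus strand), read 30.4, 45.8 and 25.2 CPM in young vehicle, 11.5, 19.5 and 7.49 CPM in aged vehicle and 17.3, 19.0 and 26.4 CPM in aged GW8510 libraries. Fbn1, the microfibril protein that also binds latent TGF-beta complexes (ENSMUSG00000027204; chromosome 2, 125300594 to 125507993, minus strand), read 84.7, 65.4 and 31.7 CPM in young vehicle, 13.6, 23.8 and 2.94 CPM in aged vehicle and 9.53, 8.86 and 28.6 CPM in aged GW8510 libraries. For both, the aged vehicle libraries lay below the young ones, and for Eln aged GW8510 library 4 entered the young range. The log2 fold change with age was -1.39 (SE 0.35, adjusted p = 0.0870, edgeR) for Eln. For Fbn1 it was -2.17 (SE 0.70, adjusted p = 0.153, edgeR).

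Bgn is a small leucine-rich proteoglycan that binds collagen (ENSMUSG00000031375; chromosome X, 73483602 to 73495933, plus strand), and Mgp is a vitamin K-dependent inhibitor of calcification (ENSMUSG00000030218; chromosome 6, 136872435 to 136875823, minus strand). Bgn read 47.6, 75.5 and 35.4 CPM in young vehicle, 14.8, 31.5 and 7.10 CPM in aged vehicle and 15.9, 18.6 and 37.9 CPM in aged GW8510 libraries. Mgp read 13.7, 20.2 and 10.7 CPM in young vehicle, 4.51, 9.57 and 3.51 CPM in aged vehicle and 6.36, 10.6 and 11.1 CPM in aged GW8510 libraries. For both genes the highest aged vehicle library lay just below the lowest young one, and the highest aged GW8510 library lay above it. The log2 fold changes with age were -1.57 for Bgn (SE 0.53, adjusted p = 0.164, edgeR) and -1.34 for Mgp (SE 0.39, adjusted p = 0.124, edgeR). 

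Left out in turn, single libraries moved the sizes of these age differences, with all 10 genes below 0 in each fit. Without aged vehicle library 4 the median of the 10 was -1.62, and without aged vehicle library 3, the highest of its group, it was -2.78. The log2 fold changes without library 4 and without library 3 were -2.07 and -3.53 for Tnc, -2.25 and -3.71 for Postn, -1.54 and -2.75 for Fn1, and -1.70 and -2.87 for Fbn1. For Bgn they were -1.20 and -2.27, and for Thbs2 -0.88 and -1.36. Without library 3, Eln at -1.83 (adjusted p = 0.0413, edgeR) and Mgp at -1.89 (adjusted p = 0.0460, edgeR) passed, and without library 4 they were at -1.13 and -1.09 and did not. Genes on the opposite strand that overlap Thbs1, Tnc, Fn1, Eln and Fbn1 held 0 to 3 counts in any library.

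Whether GW8510 moved these genes was asked by setting aged GW8510 over aged vehicle. None of the 10 passed the edgeR quasi-likelihood test, where 0% of all genes passed in either direction, and 0 of the 10 had an unadjusted p under 0.05, against 4.5% of all genes. DESeq2 and limma-voom also called 0 of the 10, and 10 and 0 of all 14384 genes. The treated and untreated libraries overlapped for all 10 genes, while for 3.89% of all genes the treated libraries were all higher and for 3.33% all lower.

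Of the 10, 9 were above 0 in the treated group, against 50.9% of all genes, with a median log2 fold change of 0.27. That count rested on single libraries: without aged vehicle library 4 it was 4 with a median of -0.06, without aged GW8510 library 4 it was 3 with a median of -0.12, and without aged vehicle library 3 it was 10 with a median of 1.11. The largest differences were those of Eln, 0.70 on the log2 scale (95% interval -0.07 to 1.47, unadjusted p = 0.0709, edgeR), and Mgp, 0.67 (95% interval -0.20 to 1.55, unadjusted p = 0.116, edgeR). Both stayed above 0 in all 9 fits that left out 1 library, from 0.42 to 1.13 for Eln and from 0.41 to 1.22 for Mgp. As a linear ratio of treated over untreated, the 95% interval ran from 0.499 to 2.83 for Thbs1 and from 0.619 to 2.31 for Sparc, so the data allowed a higher or a lower level in treated muscle. Tnc, the only gene below 0, had the widest interval, from -2.27 to 1.36 on the log2 scale.

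**Figure D2:**
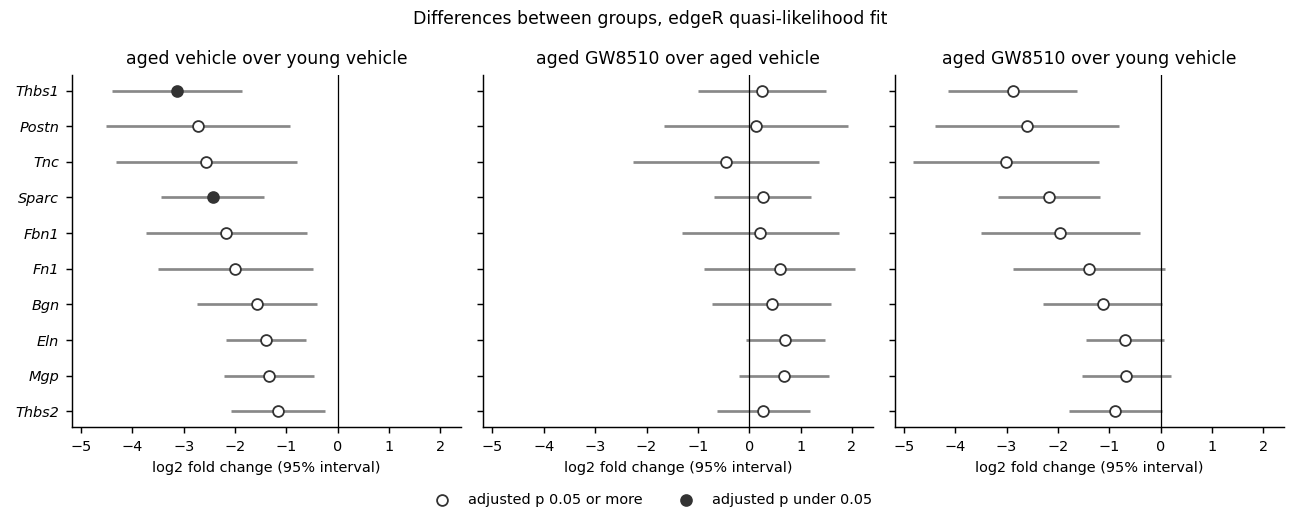
Log2 fold change of each gene with its 95% interval in the 3 comparisons, from the edgeR fit. All 10 intervals lie below 0 for aged vehicle over young vehicle, and all 10 cross 0 for aged GW8510 over aged vehicle.

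Aged GW8510 muscle was also compared with young vehicle muscle, which uses the same young libraries as the first comparison, so the 2 comparisons are not independent. All 10 genes were lower, against 48.7% of all genes, with a median log2 fold change of -1.68 against 0.01 over all genes. None passed the edgeR quasi-likelihood test, against 0.417% of all genes in the downward direction, and 5 had an unadjusted p under 0.05 with lower levels, against 8.17% of all genes. DESeq2 called 3 of the 10 (Sparc, Thbs1 and Tnc) and limma-voom called 1 (Thbs1). Of all 14384 genes they called 446 and 70 in the downward direction. Libraries did not overlap for Sparc, Thbs1, Tnc, Postn and Fbn1, where 12.8% of all genes lay wholly lower.

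Thbs1 had a log2 fold change of -2.88 (SE 0.56, adjusted p = 0.0543, edgeR) and Sparc of -2.18 (SE 0.44, adjusted p = 0.0580, edgeR). Tnc was at -3.02 (SE 0.81, adjusted p = 0.103, edgeR), Postn at -2.60 and Fbn1 at -1.95. For the other 5 genes aged GW8510 library 4 alone entered the young range, and libraries 1 and 3 lay below it. For these 5 the log2 fold changes ran from -1.40 for Fn1 to -0.67 for Mgp. Aged vehicle library 4 is in neither group but enters the estimate of the spread. Without it Sparc, Thbs1 and Tnc passed, where 337 of 14842 genes passed in the downward direction. Without aged vehicle library 3 Thbs1 passed, where 77 of 14783 genes did so.

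Levels of different genes can be set side by side only per length, on the scale of TPM (a length-scaled share of a library's transcripts) that the authors deposited. In young muscle Sparc stood first at 271 ± 107 TPM (SD, n = 3), followed by Mgp at 47.6 ± 16.4, Bgn at 32.0 ± 10.4, Fn1 at 21.4 ± 11.1 and Eln at 12.1 ± 3.77 TPM. Below them came Postn at 7.71 ± 3.09, Fbn1 at 7.14 ± 3.73, Thbs1 at 3.78 ± 1.24, Thbs2 at 2.24 ± 0.944 and Tnc at 1.64 ± 0.209 TPM. Only Sparc and Mgp were neighbours in this order whose ranges did not overlap.

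In aged vehicle muscle Sparc was at 47.1 ± 21.5 TPM (SD, n = 3), Mgp at 16.7 ± 7.82, Bgn at 9.67 ± 6.05, Fn1 at 5.46 ± 3.78, Eln at 4.24 ± 1.79, Fbn1 at 1.42 ± 1.03 and Postn at 1.02 ± 1.02 TPM. Thbs2 at 0.917 ± 0.292 TPM then stood above Thbs1 at 0.390 ± 0.280 TPM, with Tnc last at 0.243 ± 0.212 TPM. Eln and Fbn1 were the only neighbours without overlap. Aged GW8510 muscle kept Sparc first at 52.3 ± 16.9 TPM, Mgp second at 25.0 ± 8.13 TPM and Tnc last at 0.183 ± 0.205 TPM. Summed over the 10 genes, TPM ran from 293 to 561 in young, 44.2 to 128 in aged vehicle and 72.7 to 151 in aged GW8510 libraries. Sparc made up 57.0% to 71.6% of that sum in young, 50.4% to 60.1% in aged vehicle and 46.6% to 51.6% in aged GW8510 libraries.

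The 10 genes varied together between libraries. Over the 9 libraries the 45 pairs of genes had Pearson r between 0.77 and 0.98 on log2 CPM, with a median of 0.92. Over the 6 aged libraries alone r ran from 0.54 to 0.98, with a median of 0.88. All genes of a library share its depth and its dissection, so these values only describe these libraries.

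Within the aged vehicle group library 3 was highest and library 4 lowest for 10 of the 10 genes, and within the aged GW8510 group library 4 was highest for 10 of the 10. The mean over the genes of log2 CPM, each centred on its own mean over the libraries, was 1.51, 1.71 and 0.85 in young, -0.76, 0.15 and -2.05 in aged vehicle and -1.04, -0.72 and 0.37 in aged GW8510 libraries. The spread within each aged group was therefore more than 1 log2 unit. Young libraries split the genes: library 2 was highest for Thbs1, Thbs2, Postn, Fn1 and Fbn1, and library 3 for Sparc, Tnc, Eln, Bgn and Mgp.

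**Figure D3:**
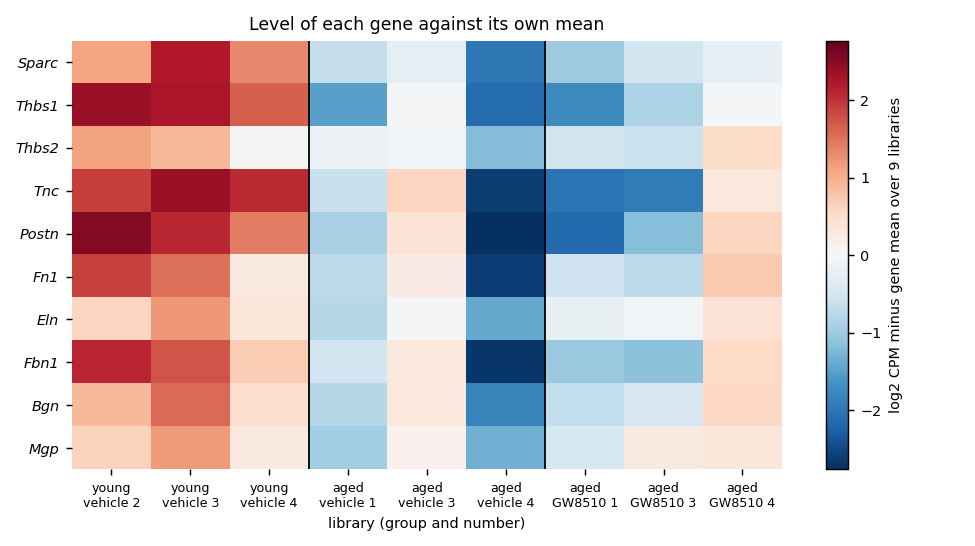
Log2 CPM of each gene minus its own mean over the 9 libraries, with a row for each gene and a column for each library. The column of aged vehicle library 4 is the lowest for all 10 genes, and aged vehicle library 3 and aged GW8510 library 4 are the highest of their groups.

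Other tested genes at 1 CPM or more, without clone-style symbols (such as Gm or Rik), were ranked by likeness to the mean of the 10. The most alike were Loxl2 (lysyl oxidase-like 2), Mrc2 (a collagen uptake receptor), Arsi and Il1rap. Next came Col15a1 (a basement membrane collagen), Comp (thrombospondin 5), Itgbl1 and Nid1 (nidogen 1). The r of these 8 genes over the 9 libraries was 0.99 for each. The single gene nearest in pattern was Col4a2 for Sparc, Dcaf7 for Thbs1, Pdgfra for Thbs2, Scd2 for Tnc, Col18a1 for Postn, Plat for Fn1, Fkbp10 for Eln, Mmp2 for Fbn1, Itgbl1 for Bgn and Phlda1 for Mgp. These r ran from 0.98 for Mgp to 0.99 for Postn, and for none of the 10 was the nearest gene another of the 10. Each search ran over all tested genes without clone-style symbols and only 9 libraries, so that outcome says little about the 10.

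Thbs1, Sparc, Tnc and Bgn were each set against a gene for a related protein, 4 pairs in all, chosen after the values were seen. The log2 ratio of CPM within a library shows whether both partners differ alike between groups, and its sign carries no meaning because the genes differ in length. For Thbs1 over Thbs2 it was 0.65, 0.71 and 0.98 in young, -1.96, -0.60 and -1.57 in aged vehicle and -1.81, -0.91 and -1.15 in aged GW8510 libraries. All 6 aged libraries lay below all young ones, by -2.11 in the mean, and from -2.26 to -1.99 with any 1 library left out. Because the pairs were picked from these values, the differences are given without a test.

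Sparc over its relative Sparcl1 was also lower in all 6 aged libraries than in the 3 young ones, by -1.87 in the mean (-2.08 to -1.61 with 1 library left out). Tnc over Tnxb (tenascin X) was lower by -1.78 without overlap (-2.14 to -1.47). Bgn over Dcn (decorin) differed by -0.32 with overlapping libraries (-0.66 to -0.13), and the largest size was reached without young library 2. Between aged vehicle and young libraries alone the ratios differed by -2.16, -1.71, -1.18 and -0.38 in the same order. For all 4 pairs the treated and untreated aged libraries overlapped.

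**Figure D4:**
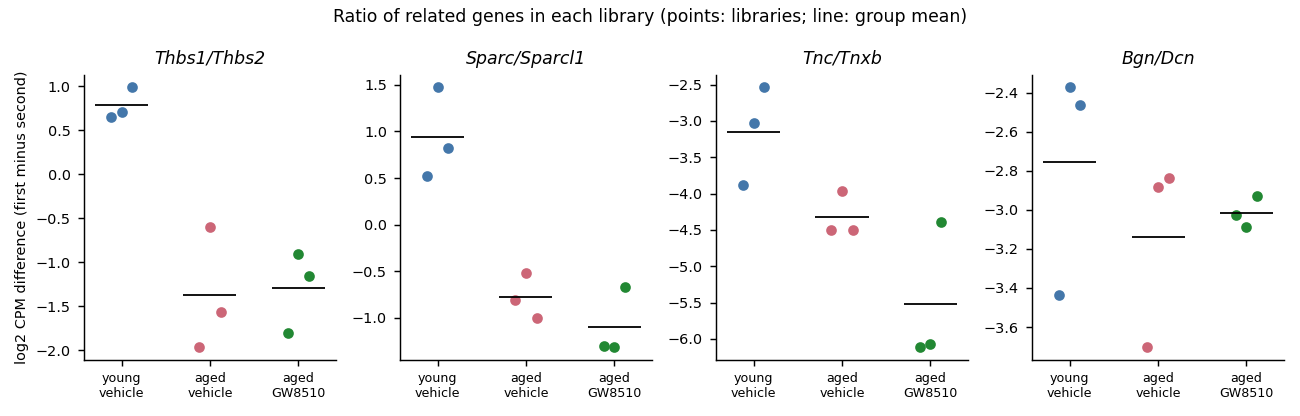
Log2 ratio of CPM of 4 gene pairs in each library, with a point for each library and a line at the group mean. The young libraries lie above all 6 aged ones for Thbs1/Thbs2, Sparc/Sparcl1 and Tnc/Tnxb, and overlap with them for Bgn/Dcn.

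Other genes of the same pathways were read from lists. Of 15 other matricellular genes tested, 1 fell with age and 0 rose (edgeR quasi-likelihood test), 13 were below 0 and the median log2 fold change was -1.14. The gene that fell was Ccn1, an integrin ligand (log2 fold change -1.14, SE 0.22, adjusted p = 0.0462). Of the 2 most abundant, Sparcl1 was at -0.71 (adjusted p = 0.225, edgeR) and Thbs4, a tendon thrombospondin, at -0.72 (adjusted p = 0.252, edgeR).

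Of 16 other elastic fibre and microfibril genes tested, 1 fell with age and 0 rose, 15 were below 0 and the median was -1.02. That gene was Lox, the lysyl oxidase that cross-links elastin and collagen, at 14.0 ± 2.27 CPM in young and 5.19 ± 0.932 CPM in aged vehicle libraries (SD, n = 3; log2 fold change -1.43, adjusted p = 0.0496, edgeR). It was also lower in aged GW8510 than in young libraries (-1.71, adjusted p = 0.0307, edgeR), the 1 gene of the list to pass there, and passed in 3 of 9 fits that left out a library (without aged vehicle library 3 or 4 or aged GW8510 library 4). With age, Ccn1 passed in 1 of the 9 such fits (without aged vehicle library 4) and Lox in 1 (without aged GW8510 library 4), and under RLE scaling the adjusted p of Lox was 0.0504. The abundant Ltbp4, which tethers latent TGF-beta, was at -1.01, and Ltbp3 at -0.25, neither past the threshold.

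All 10 tested small leucine-rich proteoglycans other than biglycan were below 0 and 0 passed, with a median of -1.59. Dcn, the most abundant, was at -1.21 (adjusted p = 0.262, edgeR), and fibromodulin (Fmod), a regulator of tendon collagen fibrils, was at -3.98 (adjusted p = 0.0884, edgeR). Of 17 receptors of these proteins 0 passed and 13 were below 0, with a median of -0.43. The most abundant, Cd36 and Itgb1, were at 0.56 and 0.35.

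Of 12 tested TGF-beta and BMP ligands and antagonists 0 passed and 7 were below 0, with a median of -0.24. Mstn (myostatin) was at -0.38 and Tgfb3 at -0.10. Of the 3 vitamin K cycle genes, whose enzymes are needed for the Gla residues of Mgp, 0 passed, and the median was -0.18. The most abundant of them, Vkorc1l1, was at -0.12 and Ggcx, the carboxylase, at -0.18. Without aged vehicle library 4 the medians with age were -0.89 for the matricellular, -0.70 for the elastic fibre, -1.18 for the proteoglycan, -0.30 for the receptor, 0.02 for the TGF-beta and BMP and -0.08 for the vitamin K genes. In that fit Lox no longer passed and the receptor gene Itga5 did, and without aged vehicle library 3 Ccn2 passed in place of Ccn1. In none of the 6 lists did a gene pass between aged GW8510 and aged vehicle (edgeR quasi-likelihood test).

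Markers of the cell types a dissected muscle can hold were read in the same fit. These lists share genes with the pathway lists above and are not independent of them. Fmod, Kera, Chad, Comp and Thbs4 are also tendon markers, and Lum and Dcn are also fibroblast markers. Of 9 fibroblast and fibro-adipogenic progenitor markers 1 fell with age, Cd34 (-1.06, adjusted p = 0.0470, edgeR), all 9 were below 0 and the median was -1.42. Their summed level was 801 to 2188 CPM in young, 208 to 882 CPM in aged vehicle and 545 to 1104 CPM in aged GW8510 libraries. Of 8 tested tendon markers 1 fell, Cilp2 (-4.69, adjusted p = 0.0308, edgeR), all 8 were below 0 and the median was -3.72. Their summed level was 178 to 388 CPM in young, 39.3 to 103 CPM in aged vehicle and 58.1 to 100.4 CPM in aged GW8510 libraries. Scx, a defining tendon transcription factor, was at -0.02 (adjusted p = 0.970, edgeR), and Tnmd (tenomodulin) at -3.54 (adjusted p = 0.0654, edgeR).

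Skeletal muscle fibre markers had a median of 0.03, with 5 of 10 below 0. The median was -0.57 for 9 endothelial markers, -0.44 for 8 smooth muscle and pericyte markers, -0.83 for 8 macrophage markers, -0.76 for 6 Schwann cell markers and -1.43 for 6 adipocyte markers, with 0 past the threshold in each. Of 7 cartilage and bone markers 1 was abundant enough to test, and Matn1 and Ibsp were at 0 in every library.

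Aged vehicle library 4, the lowest for all 10 genes, also had the lowest summed level of the fibroblast, tendon, endothelial, smooth muscle, Schwann cell and muscle fibre markers. Its macrophage sum was 98.9 CPM, between those of aged vehicle libraries 1 and 3 (71.6 and 147 CPM). Its adipocyte sum of 24.1 CPM was the highest of its group, against 18.0 and 6.01 CPM. Without aged vehicle library 4 the medians with age were -0.99 for the fibroblast, -3.19 for the tendon and -0.48 for the endothelial markers. They were -0.10 for the smooth muscle, -0.46 for the Schwann cell, -0.83 for the macrophage and -1.39 for the adipocyte markers. Cd34 did not pass in that fit. Cd34 passed in 1 of the 9 fits that left out a library (without aged vehicle library 3), and Cilp2 in 4 (without aged vehicle library 3 or 4 or aged GW8510 library 1 or 4). Aged GW8510 library 4, the highest of its group for all 10 genes, also stood out in its markers. Its adipocyte sum was 138 CPM against 3.76 and 12.4 CPM in the other treated libraries, its Schwann cell sum 118 against 26.4 and 47.8 CPM, and its fibroblast sum 1104 against 545 and 562 CPM. The median treatment difference of the 6 adipocyte markers was 1.98, with 0 past the threshold, and without that library it was -0.97. The part of cell composition and of this library in the treatment differences was not tested.

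The part of cell composition in the age differences of the 10 genes was not tested.

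**Figure D5:**
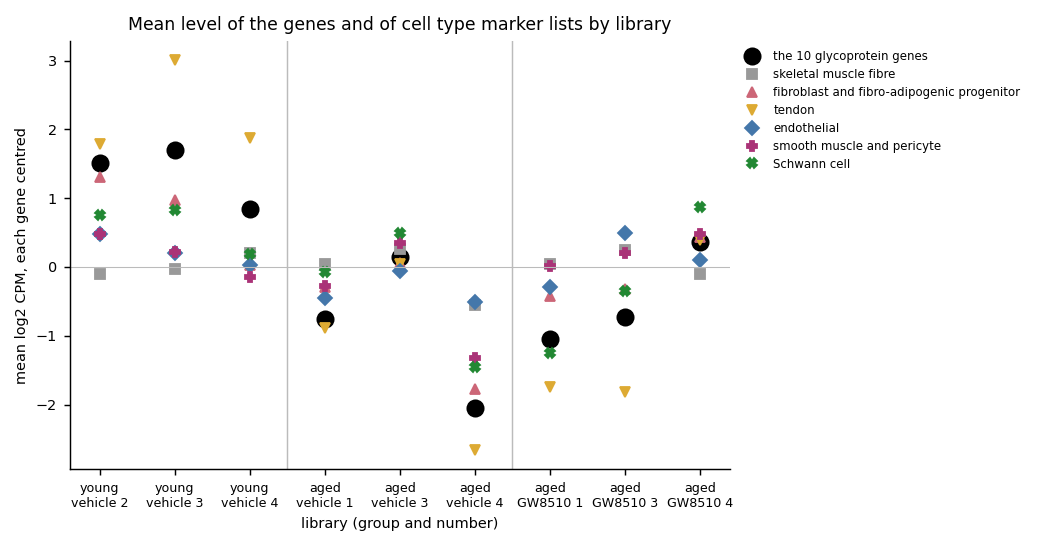
Mean log2 CPM, each gene centred on its own mean over the libraries, for the 10 genes (large black points) and for cell type marker lists in each library. The lists drawn are muscle fibre, fibroblast, tendon, endothelial, smooth muscle and Schwann cell, without macrophage and adipocyte. The tendon and fibroblast lists are lowest in aged vehicle library 4, as are the 10 genes.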

How the data were processed

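RNA of 9 muscle libraries was analysed from 3 tables, each for a pair of groups. Expected counts per gene, neither scaled nor filtered, and TPM were deposited per library, per the file headers, and 75.06% of the deposited counts above 0 were exactly whole. The authors also deposited log2 fold ratios and p-values per comparison. Of the 10 genes, 7 had an adjusted p under 0.05 in the authors' deposited table for age, 0 for treatment and 6 for aged GW8510 over young. The share of all genes under 0.05 in those tables was not counted, so these counts have no background beside them. The DESeq2 fit run here called 974 of 14384 genes for age, 10 for treatment and 870 for aged GW8510 over young. The submitters' processing notes name GRCm38, CASAVA, HISAT2, StringTie, RSEM, DESeq2 and edgeR, without versions or roles. The annotation and the use of strand are not given in the sources used here. Gene coordinates came from GENCODE M21 (GRCm38). For 27 genes the symbol differed between tables because a date had replaced it, and the symbol most frequent over the tables was taken.

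Counts were rounded. Genes kept by filterByExpr (14384) were scaled by TMM and tested two-sided with edgeR 4.0.16 (R 4.3.3), quasi-likelihood, 9 libraries in 1 fit with 1 mean per group, and Benjamini-Hochberg adjustment over all genes at 0.05. DESeq2 1.42.0 and limma 3.58.1 (voom) were alternatives, beside other scalings, no filter, the compared libraries alone, a replicate block and leaving out each library. For the gene ratios, the lists, Ccn1, Lox, Cd34 and Cilp2 the alternatives were added after the data were seen. A prior count of 2 was used for log2 CPM, ratios and correlations. A floor of 3 counts equals 0.109 to 0.138 CPM, for counting error only.

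The genes and lists were chosen with earlier results of these data known. Named are the 10 genes, and from each of the 6 pathway lists up to 4 genes past the age threshold plus, where fewer than 2 passed, the 2 most abundant. The 8 genes with the highest r to the mean of the 10, at 1 CPM or more, and the nearest gene of each were taken likewise. Clone-style symbols were left out of both searches. Cd34 and Cilp2 are the cell type markers past the age threshold. Tnmd, Scx, Itga5, Ccn2 and the pair partners Sparcl1, Tnxb and Dcn were chosen after their values were seen.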

Additional observations from a re-analysis of the deposited data

How the results depend on the processing

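With age, the log2 fold changes of all 10 genes stayed below 0 under every alternative run. The number past the threshold was 2 in the reported fit, 9 without the filter on low counts, 6 with DESeq2 and 0 with only the 6 compared libraries. Leaving out 1 library gave 0 to 4, and 19 to 148 of all genes against 175. All genes called numbered 699 without the filter, 974 with DESeq2 and 50 with 6 libraries. For aged GW8510 over young the 0 became 5 without the filter, 3 with DESeq2, 1 with limma-voom and 3 with the 6 compared libraries. All genes called there numbered 553 of 25713, 870 of 14384, 105 of 14384 and 469 of 14010 in the same order, against 108. Leaving out 1 library there gave 0 to 3 of the 10, and 25 to 594 of all genes. The causes were not tested. For aged GW8510 over aged vehicle no gene of the 10 passed in any fit. Of the whole table, 5 genes passed without the filter, 10 with DESeq2 and 2 without aged vehicle library 3, against 0.

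In that comparison leaving out 1 library turned the sign of 8 genes. The log2 fold changes then ran from -0.10 to 0.63 for Sparc, -0.30 to 1.11 for Thbs1, -0.19 to 0.47 for Thbs2, -1.82 to 0.51 for Tnc, -1.05 to 1.11 for Postn, -0.031 to 1.35 for Fn1, -0.56 to 0.92 for Fbn1 and -0.053 to 1.14 for Bgn.

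The replicate numbers in the labels did not pair the libraries: deviations of 7 same-numbered pairs correlated between -0.209 and 0.138, and 1 of 8 libraries with a partner correlated best with its own number. With the number as a replicate block, 0 of the 10 genes passed with age and 0 for aged GW8510 over young. Of all 14384 genes, 5 passed with age and 8 for aged GW8510 over young. Low counts limit Tnc and Postn, with 5 and 9 counts in aged vehicle library 4.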
